A study of Mus musculus with 26 samples.

Results

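CSR-HTGTS-Seq reads out the repair partners of DNA breaks made during class switch recombination (CSR) of the immunoglobulin heavy chain (IgH) locus. A primer next to one switch region, the bait, is extended over its breaks, and each read then gives a join between the bait and a prey sequence. Described here are the joins whose prey lay in the IgH locus but outside its switch regions. They were chosen by position alone, as every join on chromosome 12 (mm9) with its prey end in 1 of 3 windows. The 3′ flank is the DNA downstream of Sα, and its joins lay from chr12:113527675 to chr12:114471426. The interval is a window of 21 kb between Sγ3 and Sµ, with joins from chr12:114622386 to chr12:114641873. The upstream window, the D and V side of the locus, is 2818 kb, with joins from chr12:114687532 to chr12:117476365. The 26 libraries together held 777800 joins, of which 1335 met this rule, 369 in the 3′ flank, 54 in the interval and 912 upstream. A further 615991 joins lay in the switch regions of the same locus. The J segments and the Eµ enhancer lie beside Sµ and were counted with it. Distances below are from the ends of the windows, since the exact places of Sα and Sµ in mm9 were not established.

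The libraries came from CD43- splenic B cells of WT mice and of mice homozygous for the A150 mutation, all of 129Sv background and 6 to 8 weeks old by the study's methods. In A150 mice a PVH-VDJ-Eµ cassette (a V promoter, a rearranged VDJ exon and the Eµ enhancer) takes the place of the Iγ3 promoter, and Sµ and Sγ3 are left intact. As the study describes from earlier work, A150 alleles are mostly rearranged to DJH only, and the B cells develop on IgG3. The cells were stimulated with anti-CD40+IL4, or with anti-CD40, IL4, IL5, TGF-β and BLyS (anti-CD40+TGF-β), for 96 h per the labels. Each genotype, bait and stimulation had 3 libraries, except for 4 in A150 with Sµ as bait and anti-CD40+IL4 and 4 in A150 with Sγ3 as bait and anti-CD40+TGF-β. The labels give the target locus as WT for Sµ baits and as A150 for Sγ3 baits in both genotypes, and genotype was taken from the sample titles. The labels do not say that libraries of a group came from separate animals, and the study's figure legends speak of independent mice without tying them to libraries, so the p-values measure the spread between libraries. The libraries analysed here hold joins and no gene expression, so the cell type was not checked against markers in them.

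During CSR, AID deaminates cytosines in transcribed switch regions, and the resulting breaks at Sµ and at a downstream switch region are joined so that the DNA between them is lost. The V, D and J segments upstream were joined earlier, in the bone marrow, by the RAG recombinase, which cuts beside recombination signal sequences made of a heptamer, a spacer and a nonamer. AID also mutates the rearranged V exon in germinal centre B cells, and it acts at low level on transcribed genes elsewhere. Downstream of Cα lies the 3′ regulatory region, a set of enhancers that drive switch transcription. Joins from Sµ into that region remove every constant gene, which is known as locus suicide recombination. The IgH locus is transcribed towards lower chromosome coordinates. A prey in the bait orientation runs on in the same direction as the bait read. Downstream of the bait such a join is a deletion, and the other orientation is an inversion. Upstream of the bait the bait orientation is no deletion of the chromosome, and fits an excised circle or a join between alleles, whereas the other orientation fits an inversion.

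Depth set what could be seen. A150 libraries held 35170 to 96651 joins in the locus, from the 3′ flank to the upstream window with all between, when Sγ3 was the bait and 8276 to 36105 with the Sµ bait. WT libraries held 4627 to 24056 with the Sµ bait and 37 to 108 with the Sγ3 bait. None of the 1335 joins was marked for low mapping quality, as a duplicate or as a later junction of its read. In the switch regions 380579 of 615991 joins carried the mark for low mapping quality. Shares below are percentages of a library's joins in the locus. Because switch joins make up nearly all of that number, a change in the joins outside and a change in the switch joins cannot be told apart from a share alone.

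The sequences that show what the upstream joins touched come first. The prey reads of the first 100 kb were laid over each other to rebuild the sequence at these sites. They covered 92 stretches, of which 13 held at least 5 joins. Of the 92, 8 began 17 to 23 bases before a recombination signal. The signal searched for was the heptamer CACAGTA or CACAGTG, 12 spacer bases with 1 more allowed, and the nonamer core ACAAAA, on both strands, in 17333 rebuilt bases. It was found 8 times in one direction and 1 time in the opposite direction, at chr12:114723433. No signal was found in the stretch chr12:114705610-114707239, which held 75 joins. Of the 8 signals near the start of a stretch, 4 are shown, from stretches with 321, 90, 17 and 27 joins in turn. They are given on the plus strand of mm9 from within 1 base of the edge of the covered stretch, with the heptamer in capitals. The first lies in a bin named by the rule below, and the other 3 were chosen after their values were seen.
chr12:114734545-114734606: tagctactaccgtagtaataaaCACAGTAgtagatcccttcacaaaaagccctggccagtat
chr12:114695745-114695803: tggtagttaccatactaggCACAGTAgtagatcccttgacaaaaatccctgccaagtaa
chr12:114719358-114719414: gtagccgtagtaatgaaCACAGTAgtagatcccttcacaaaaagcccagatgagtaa
chr12:114690286-114690342: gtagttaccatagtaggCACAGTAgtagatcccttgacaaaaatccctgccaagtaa
The bases before each heptamer are D coding sequence, read from the opposite strand. The first is known as DFL16.1, a D segment used in many rearrangements. The 8 stretches thus started at the end of a D segment that faces J. They ran away from J, over the D segment, its upstream signal and the DNA beyond.

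Some reads in the bait orientation ran through a D segment and went on in sequence of the J cluster, which lies apart from D in unrearranged DNA. The next lines give 3 such reads in read orientation (minus strand of mm9), because they show the D to J junction itself, with the bases that matched neither D nor J in capitals. The read shown for DFL16.1 had no such bases, and a second read there had 3.
D end at chr12:114734547: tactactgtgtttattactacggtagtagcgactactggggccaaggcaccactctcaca
D end at chr12:114727777: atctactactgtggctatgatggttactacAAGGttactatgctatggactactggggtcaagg
D end at chr12:114690294: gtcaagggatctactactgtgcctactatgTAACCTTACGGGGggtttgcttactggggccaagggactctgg
In all, 7 reads of the first 100 kb continued into J sequence, at positions that fall into 4 groups. RefSeq (GRCm38.p6) lists 4 J segments in this order, and by that order 2 of the 7 reads ran into Ighj4, 2 into Ighj3, 2 into Ighj2 and 1 into Ighj1. No pair of the 7 shared both the D end and the J position.

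One V segment gave another picture. In A150 libraries 38 prey alignments in the bait orientation ended at the same base, chr12:115364195, and 34 of them went on with the same 14 bases. The other 4 shared the first 2 to 9 of these bases before the read left the genome. The line below gives one of these reads in read orientation, the last 40 V bases, the shared 14 bases in capitals and J.
V end at chr12:115364195: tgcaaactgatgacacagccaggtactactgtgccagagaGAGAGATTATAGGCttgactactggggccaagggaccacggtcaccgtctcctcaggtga
J sequence could be placed in 29 of these reads, from 11 libraries, and its first bases matched the rebuilt sequence that starts at chr12:114672070 in each. This is the Ighj2 group by order, but the match was broken. Of the reads with at least 30 bases after the shared 14, all 28 left that sequence after 19 bases, and each then held 14 bases in a row that matched the Ighj1 group. Of the 28, 20 then came back to the Ighj2 sequence at the same offset, after at most 7 overlapping runs of 14 bases in the Ighj1 group. Of the other 8, 7 ended within 41 bases, and 1 went on in the Ighj1 group for 291 such runs. The read shown for DFL16.1 followed the Ighj2 sequence over all 30 bases shown. Of the 29 reads, 4 had the Sµ bait and 25 the Sγ3 bait. These 29 reads shared the same bases from the V end into J. Not among them was 1 read of A150 Sγ3-bait anti-CD40+IL4 library 3. It had 18 bases after the shared 14, and 0 of them followed the Ighj2 sequence. The A150 cassette carries 1 rearranged VDJ exon. The deposited positions are those of mm9, so a cassette copy and a germline copy of the V segment align to the same place, and joins that did not run through the V end cannot be told apart.

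Over all libraries upstream joins were the most frequent of the 3 windows, though not in every library. In the 3 WT Sγ3-bait libraries of each stimulation, summed, 13 joins (IL4) and 16 joins (TGF-β) lay in the 3′ flank. Upstream there were 1 and 1, and the 3′ flank was ahead in each library. Of the 13 and 16, however, 12 and 15 were the runs of G described below, which left 1 and 1 in the 3′ flank. In the 3′ flank and upstream, WT Sµ-bait anti-CD40+IL4 library 2 had 9 and 7, A150 Sµ-bait anti-CD40+TGF-β library 2 had 8 and 6, and WT Sµ-bait anti-CD40+TGF-β library 1 had 4 in each. With the Sµ bait, upstream joins took on average a larger share of locus joins in A150 than in WT libraries. With the Sµ bait and anti-CD40+IL4, the WT libraries had 0.0461%, 0.0330% and 0.0208% of their locus joins upstream. The A150 libraries had 0.137%, 0.147%, 0.162% and 0.145%, all above every WT library and 4.44 times as high on average. With anti-CD40+TGF-β, WT libraries had 0.0864%, 0.0562% and 0.0559%, and A150 libraries had 0.116%, 0.0561% and 0.133%, so that the genotypes overlapped. Permuted within each stimulation over 700 arrangements, the A150-WT difference averaged 0.0749 percentage points (exact permutation test, 2-sided, p = 0.00429, adjusted p = 0.0129 over 9 tests). Leaving out the joins marked for low mapping quality, which within the locus all lie in the switch regions, gave 0.152 percentage points and an adjusted p of 0.122 in the exact test.

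In A150 cells the Sγ3 bait found more upstream joins than the Sµ bait. For anti-CD40+IL4 the Sγ3-bait libraries had 0.174%, 0.190% and 0.187%, each above all 4 Sµ-bait libraries. For anti-CD40+TGF-β they had 0.134%, 0.157%, 0.148% and 0.148%, against 0.116%, 0.0561% and 0.133% with the Sµ bait, again without overlap. The bait difference averaged 0.0405 percentage points (exact permutation test, p = 0.000816, adjusted p = 0.00735). By the same exact test it was 0.0237 percentage points without the V site (adjusted p = 0.0808), 0.0338 with at least 30 prey and 50 bait bases (adjusted p = 0.0514), and 0.0239 without joins marked for low mapping quality (adjusted p = 0.622). The V site accounted for 101 of 708 Sγ3-bait and 16 of 204 Sµ-bait upstream joins.

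Stimulation did not pass the test for the upstream share as a whole (difference of TGF-β minus IL4 -0.0169 percentage points, exact permutation test, adjusted p = 0.218), and without A150 Sµ-bait anti-CD40+TGF-β library 2 the difference was -0.00933. The strata went in opposite directions. In A150 libraries the share was lower with anti-CD40+TGF-β for the Sµ bait (0.102% ± 0.0403, SD, n = 3, against 0.148% ± 0.0104, n = 4) and for the Sγ3 bait (0.147% ± 0.00973, n = 4, against 0.184% ± 0.00833, n = 3), without overlap in either. In WT Sµ-bait libraries it was higher (0.0662% ± 0.0176, n = 3, against 0.0333% ± 0.0127, n = 3), also without overlap. Each of these 3 exact permutation tests had the smallest p its split allows (0.0286, 0.0286 and 0.1), with adjusted p from 0.1 to 0.233 over 21 tests. The average difference did pass the exact test under 4 other ways of counting, at -0.0464 with all joins of a library as denominator, -0.0381 with identical joins counted once, -0.0367 without duplicate marks and -0.146 with each position and strand counted once. The change of the bait or genotype difference between stimulations was tested for all 3 windows, and none of the 6 tests passed (adjusted p from 0.669 to 0.816).

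**Figure D1:**
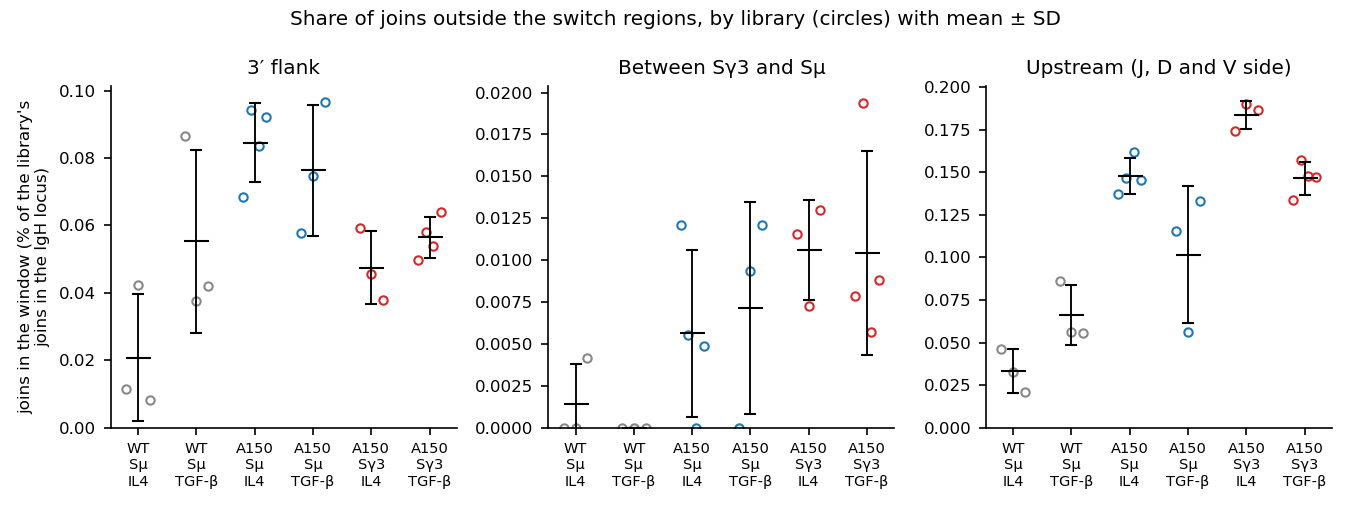
Joins outside the switch regions in each of the 3 windows (vertical axis, percent of the library's joins in the IgH locus), by genotype, bait and stimulation, with 1 circle per library and bars for mean ± SD. Upstream, the 3 WT circles for anti-CD40+IL4 lie between 0.0208% and 0.0461% and the 4 A150 Sµ-bait circles between 0.137% and 0.162%. The 6 WT Sγ3-bait libraries are left out because each held at most 108 joins in the locus.

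Most upstream joins lay on the D side. The first 100 kb held 719 of 912 (78.8%) and the stretch from there to 500 kb only 15. Of the 719, 707 were from A150. In WT Sµ-bait libraries the first 100 kb held fewer than the rest, with 7 of 16 upstream joins (IL4) and 4 of 11 (TGF-β). A bin of 1 kb was named when it was among the 5 of its window with joins in the most libraries. In the upstream window these were the bins that start at chr12:114734000 (97 joins, 16 libraries), 114735000 (152 joins, 15 libraries), 114696000 (58 joins, 14 libraries), 114706000 (59 joins, 12 libraries) and at the V site (117 joins, 11 libraries). The first pair is the DNA at and beyond DFL16.1, and the third starts just above the D end at chr12:114695745.

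Coverage beyond DFL16.1 was continuous from chr12:114734544 to chr12:114737112, with 321 joins from 18 libraries, and 4 of the joins were from WT. Of the 321, 100 had the bait orientation and 221 the other. Within 1 kb on the far side of the DFL16.1 end there were 186 joins, and within 1 kb on the J side none. Summed over the 8 D ends, 366 joins lay within 1 kb on the far side and 5 on the J side. The ends were found from the covered stretches, so this contrast is a description. DNA on the J side of a D segment is lost from an allele once D and J are joined.

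**Figure D2:**
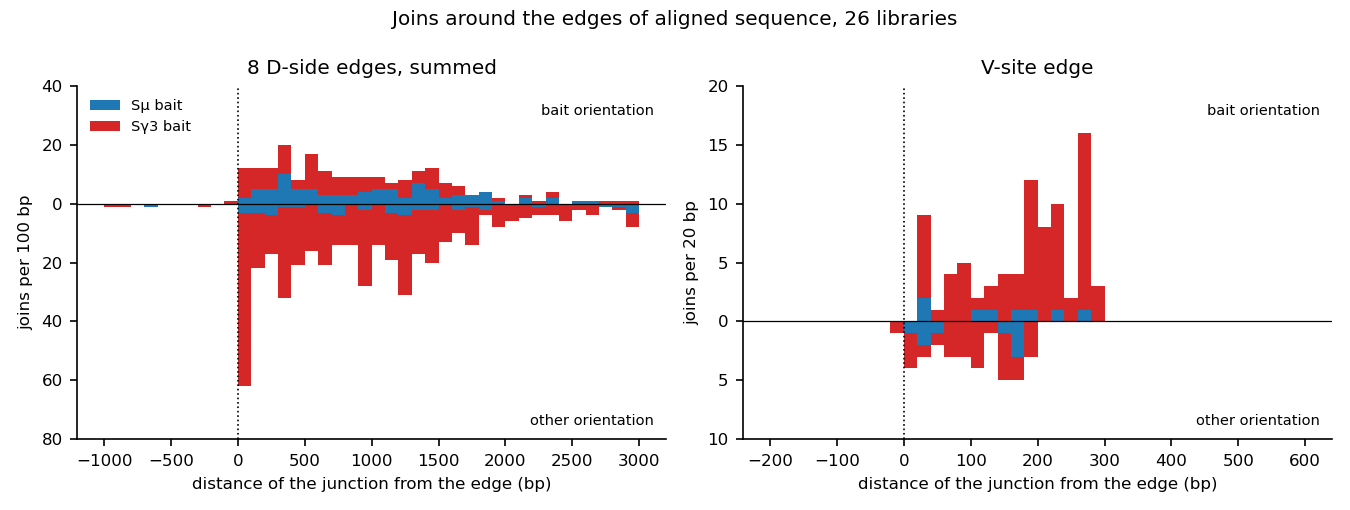
Joins by distance from the 8 D ends (left, summed, 100-bp bins) and from the V end (right, 20-bp bins), with the bait orientation above and the other orientation below the line, and the baits in colour. The D side has 366 joins in the first kilobase above the ends and 5 in the kilobase below, and the V site has 116 and 1.

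The first 100 bp above the D ends held 62 joins in the other orientation, 59 of them with the Sγ3 bait, and 12 in the bait orientation. In the first 40 bp, 15 of 31 such joins had bases inserted between bait and prey, with a median of 3 bases, and 3 had 10 or more. Of those 3, 1 held a run of 10 bases from the J cluster. From 100 bp to 1 kb, 43 of 185 joins in the other orientation had an insertion.

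The D side was also measured by group. In A150 libraries it took, for anti-CD40+IL4, 0.122% ± 0.0193 (n = 4) of locus joins with the Sµ bait and 0.151% ± 0.0105 (n = 3) with the Sγ3 bait. After anti-CD40+TGF-β it took 0.0943% ± 0.0339 (n = 3) and 0.106% ± 0.0122 (n = 4). Unlike the whole upstream share, the baits overlapped in both stimulations, where the lowest Sγ3-bait libraries (0.142% and 0.0938%) lay below the highest Sµ-bait libraries (0.146% and 0.121%). WT Sµ-bait libraries had 7 D-side joins for anti-CD40+IL4 (0.0150% ± 0.00716, n = 3) and 4 for anti-CD40+TGF-β (0.0263% ± 0.0341, n = 3). Of the latter 4 joins, 3 came from library 1. The D-side shares are parts of a share already tested, so no further test was made.

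The V site had joins in 11 of 14 A150 libraries and in 0 of 12 WT libraries. It had 3, 5, 2 and 6 joins in the Sµ-bait libraries for anti-CD40+IL4. In the Sγ3-bait libraries it had 14, 19 and 23 joins in the IL4 condition, and 8, 12, 14 and 11 in the TGF-β condition. These came to 0.0164% ± 0.00859 (n = 4), 0.0223% ± 0.00420 (n = 3) and 0.0277% ± 0.00832 (n = 4) of locus joins. The 3 A150 Sµ-bait libraries for anti-CD40+TGF-β had 0 of 29342 locus joins there, which allows up to 0.0102%. WT Sµ-bait libraries had 0 of 53955 joins in the IL4 and 0 of 17123 in the TGF-β condition, which allows up to 0.00556% and 0.0175%. WT Sγ3-bait libraries had too few joins to see it, with limits of 1.11% and 2.44%. Junctions at the site spread from chr12:115364194 to chr12:115364490, over the V exon, and prey alignments differed from mm9 at 1.55% of bases.

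Further upstream the joins were scattered. Beyond 1 Mb there were 51 joins at 51 distinct positions, and 33 of them lay in the last part of the window, more than 2.5 Mb from its Sµ side. WT libraries gave 12 of these 51. Of WT Sµ-bait upstream joins, 6 of 16 in the IL4 condition and 6 of 11 in the TGF-β condition lay beyond 1 Mb, against 5 of 148 and 0 of 29 with the Sµ bait in A150. As shares of locus joins these were 0.0115% ± 0.00734 and 0.0337% ± 0.0107 in WT (n = 3 each), and 0.00523% ± 0.00218 (n = 4) and 0 in A150. The split by distance was drawn after the positions were seen and was not tested. Prey alignments differed from mm9 at 0.463% of bases in the first 100 kb and at 2.73% beyond 1 Mb. The mice are of 129Sv background, and the part of strain differences in where V reads aligned was not tested. Of the WT reads, 2 ran from a V end into Ighj4 by order, at chr12:115918938 and chr12:117476314, each with its own junction.

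**Figure D3:**
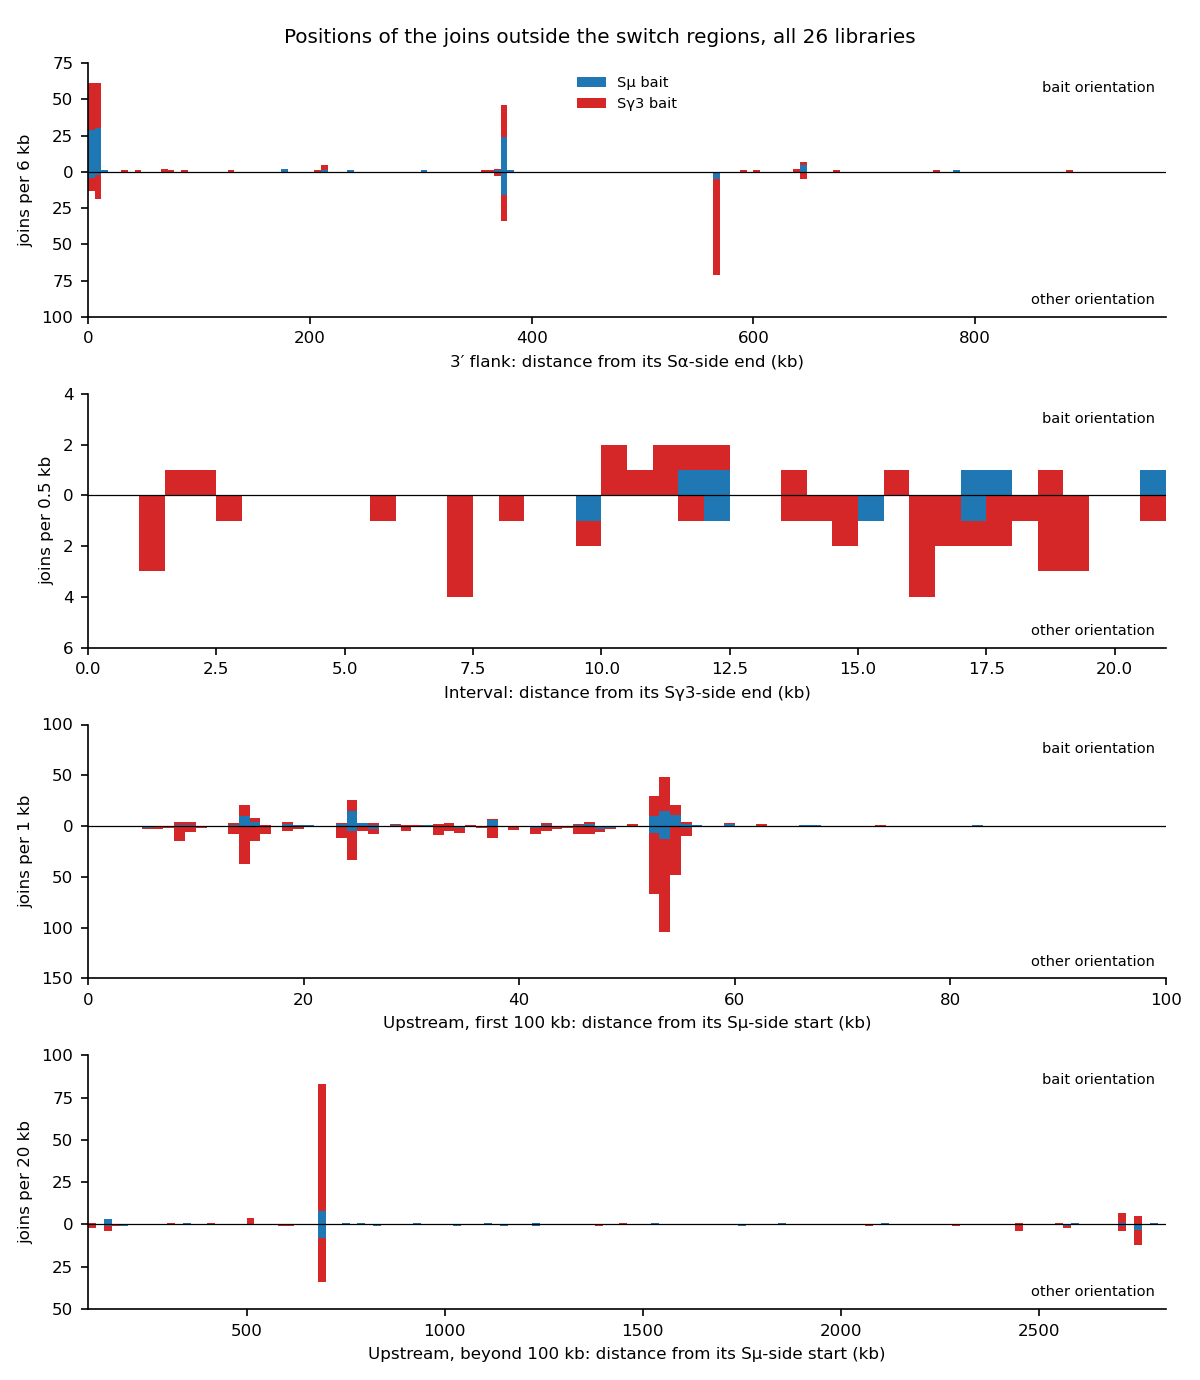
Positions of all 1335 joins, from top to bottom in the 3′ flank, the interval, the first 100 kb upstream and the rest of the upstream window (horizontal axes, distance in kb from the switch-region side). Bars give joins per bin, with the bait orientation above and the other orientation below the line and the baits in colour. The 3′ flank has narrow peaks near 0, 374 and 570 kb, the D side peaks at 52 to 54 kb, and the V site at 682 kb.

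Orientation differed by bait. Upstream, in A150 libraries with at least 10 joins there, 61.8%, 56.6%, 77.4% and 43.3% of joins had the bait orientation with the Sµ bait and anti-CD40+IL4, against 28.9%, 28.3% and 32.9% with the Sγ3 bait. After anti-CD40+TGF-β the values were 41.7% and 63.6% with the Sµ bait, and 37.3%, 28.8%, 38.5% and 32.8% with the Sγ3 bait. No Sγ3-bait library reached any Sµ-bait library of the same stimulation. Over both stimulations the mean was 32.2% with the Sγ3 bait and 56.2% with the Sµ bait (exact permutation test over 525 arrangements, p = 0.00190, adjusted p = 0.00762 over 4 tests). With at least 30 prey and 50 bait bases the difference was -27.4 percentage points and did not pass (exact permutation test, adjusted p = 0.114). Without Sµ-bait anti-CD40+TGF-β library 1 or 3 only the anti-CD40+IL4 libraries remained for the test, and the difference was -29.7 percentage points (exact permutation test, adjusted p = 0.114). Stimulation did not pass (-1.42 percentage points, exact permutation test, adjusted p = 0.869).

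The D side and the V site are given apart, pooled over libraries and with no test. On the D side 98 of 161 Sµ-bait joins (60.9%) and 126 of 558 Sγ3-bait joins (22.6%) had the bait orientation. At the V site these were 8 of 16 and 75 of 101 (74.3%). Without the V site the upstream bait difference in orientation was -32.7 percentage points (exact permutation test, adjusted p = 0.00762). In WT Sµ-bait libraries 17 of 27 upstream joins had the bait orientation, too few per library for the test.

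**Figure D4:**
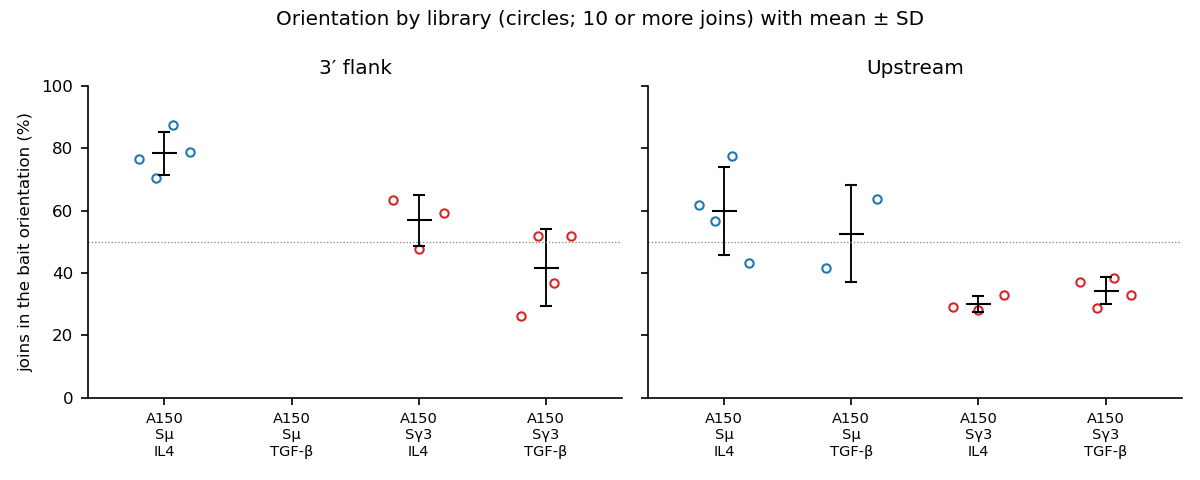
Percent of joins in the bait orientation in the 3′ flank (left) and upstream (right) in A150 libraries, with 1 circle per library of 10 or more joins in the window and bars for mean ± SD, and a dotted line at 50%. Upstream, Sγ3-bait libraries lie between 28.3% and 38.5%, and Sµ-bait libraries between 41.7% and 77.4%.

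In the 3′ flank 1 site consisted mostly of runs of G. The 1-kb bin at chr12:113902000 held 71 joins from 18 libraries, the most of any bin in the flank. All 71 had the other orientation, and 66 were with the Sγ3 bait. The prey read of the most frequent position, chr12:113902825 on the plus strand with 29 joins in 12 libraries, is shown with its G runs in capitals, since this site leads the window by count.
chr12:113902825-113902869: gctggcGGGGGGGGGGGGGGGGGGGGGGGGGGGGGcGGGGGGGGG
Of the 369 joins in the 3′ flank, 72 had a run of at least 15 G or C, 66 of them in this bin. They made up 12 of 13 and 15 of 16 joins of the WT Sγ3-bait libraries in the IL4 and the TGF-β condition, and 41 of 211 in A150 Sγ3-bait libraries. With the Sµ bait there were only 4. Outside the locus, 3188 of 4406 joins on chromosome 12 had such runs. Whether these reads are joins to that place in the genome was not tested, so the 3′ flank tests are also given without them, an alternative added after the data had been seen.

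Without these reads the 3′ flank held 297 joins, and they fell into a few places. The last 12 kb before the Sα-side end of the window held 154, from 17 libraries. The bins named there start at chr12:114465000 (33 joins, 15 libraries) and chr12:114466000 (30 joins, 14 libraries). Within 50 kb of the Sα-side end the density was 3.16 joins per kb, against 0.151 per kb in the rest of the flank. In each of 11 libraries with at least 10 such joins the near part was denser, by 4.60 on the log2 scale on average (sign-flip permutation test, p = 0.00106). In the last 12 kb most joins were deletions, 59 of 65 with the Sµ bait and 63 of 89 with the Sγ3 bait. Whether these positions lie within the 3′ regulatory region was not examined, since no annotation of mm9 was used here.

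A second group lay 372 to 376 kb from the Sα-side end of the window. Between chr12:114096189 and chr12:114099991 there were 76 joins at 73 distinct positions, from 18 libraries, 38 with each bait and 7 from WT. Both orientations were present, 43 in the bait orientation and 33 in the other. The bins named there start at chr12:114098000 (17 joins, 12 libraries) and chr12:114097000 (28 joins, 11 libraries). Gene names were sought by matching the 297 prey reads to the RefSeq promoters of GRCm38.p6, 32851 sequences of up to 300 bases, by at least 3 runs of 24 bases found at a single place among them, and promoters of chromosome 12 were kept. Gpr132, which encodes a G protein-coupled receptor of lymphocytes and macrophages, was matched by 5 reads between chr12:114098878 and chr12:114099473, 4 with the Sγ3 bait and 1 with the Sµ bait. The line below is the RefSeq promoter over the stretch matched by the best of these reads, read opposite to the gene, with the bases covered by matching runs in capitals.
Gpr132 promoter: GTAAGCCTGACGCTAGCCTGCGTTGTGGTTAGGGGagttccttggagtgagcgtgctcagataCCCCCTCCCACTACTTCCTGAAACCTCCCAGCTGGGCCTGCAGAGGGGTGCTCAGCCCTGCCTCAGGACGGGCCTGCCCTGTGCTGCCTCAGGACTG
The only other promoter matched was that of Gm30101, an annotated locus, by 1 read.

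The share of 3′ flank joins differed by genotype and by bait. With the Sµ bait and anti-CD40+IL4 it was 0.0115%, 0.0424% and 0.00831% in WT libraries, and 0.0685%, 0.0942%, 0.0836% and 0.0921% in A150 libraries, without overlap. For anti-CD40+TGF-β it was 0.0864%, 0.0375% and 0.0419% in WT and 0.0578%, 0.0748% and 0.0967% in A150, with overlap. The difference averaged 0.0425 percentage points (exact permutation test over 700 arrangements, p = 0.0100, adjusted p = 0.0225). Without the G runs it was 0.0465 percentage points (same exact test, adjusted p = 0.00857). Leaving out joins marked for low mapping quality gave 0.0690, and with window edges moved by 5 kb 0.0335 (exact permutation tests, adjusted p = 0.309 and 0.0643). The adjusted p of the exact test was 0.0514 without WT anti-CD40+TGF-β library 2 or 3, and 0.0579 without A150 Sµ-bait anti-CD40+TGF-β library 3, with differences of 0.0381, 0.0392 and 0.0374 percentage points.

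Here the Sγ3 bait gave the lower share, opposite to the upstream window. For anti-CD40+IL4 the Sγ3-bait A150 libraries had 0.0591%, 0.0455% and 0.0378%, each below every Sµ-bait A150 library. For anti-CD40+TGF-β they had 0.0498%, 0.0581%, 0.0540% and 0.0639%, and overlapped with the Sµ bait. The bait difference was -0.0286 percentage points (exact permutation test, p = 0.00245, adjusted p = 0.0110). Leaving out the G runs gave -0.0380 (same exact test, adjusted p = 0.00367). It no longer passed the exact test when each position and strand was counted once (-0.0141, adjusted p = 0.460) or with all joins of a library as denominator (-0.0165, adjusted p = 0.0686). Stimulation did not pass in this window (0.0118 percentage points, exact permutation test, adjusted p = 0.218), and its difference was 0.00245 without the G runs and 0.00658 without WT Sµ-bait anti-CD40+TGF-β library 1. The sign turned with all joins of a library as denominator (-0.00975) and with each position and strand counted once (-0.0235).

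By place, the last 12 kb took 0.0515% ± 0.00498 (n = 4) of locus joins with the Sµ bait and 0.0227% ± 0.00432 (n = 3) with the Sγ3 bait in A150 cells with anti-CD40+IL4. The Gpr132 group took 0.0252% ± 0.00958 and 0.0113% ± 0.00144 in the same libraries. For anti-CD40+TGF-β the last 12 kb took 0.0246% ± 0.0213 (n = 3) and 0.0194% ± 0.00811 (n = 4), and the Gpr132 group took 0.0167% ± 0.00400 and 0.00600% ± 0.000648. The Sµ-bait value for the last 12 kb comes from libraries with 0, 0.0374% and 0.0362%. In the IL4 condition WT Sµ-bait libraries had 5 joins in the last 12 kb (0.00748% ± 0.00710) and 3 in the Gpr132 group (0.00699% ± 0.00614). In the TGF-β condition they had 2 (0.0119% ± 0.0110) and 4 (0.0269% ± 0.0235), with n = 3 each. The mean share of the Gpr132 group with the Sµ bait was thus higher in WT than in A150 in the TGF-β condition, with overlap.

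In A150 cells with anti-CD40+IL4, 76.5%, 70.6%, 87.5% and 78.9% of Sµ-bait 3′ flank joins were deletions, against 63.4%, 47.7% and 59.4% with the Sγ3 bait. The libraries did not overlap, but the test did not pass after adjustment (-21.5 percentage points, exact permutation test over 35 splits, p = 0.0286, adjusted p = 0.0571). Without the G runs the difference was -17.1 percentage points (exact permutation test, adjusted p = 0.0571). Between stimulations the Sγ3-bait libraries differed by -15.2 percentage points, which did not pass (exact permutation test, adjusted p = 0.229), and by -3.35 without the G runs.

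The interval between Sγ3 and Sµ had few joins. Of the 54, 52 were from A150 and 45 had the Sγ3 bait. A150 Sγ3-bait libraries had 8, 7 and 11 joins there in the IL4 condition, and 3, 9, 2 and 4 in the TGF-β condition. A150 Sµ-bait libraries had 3, 2, 0 and 1, and 0, 1 and 1. WT libraries had 1 join with each bait. As shares, the Sγ3 bait gave 0.0106% ± 0.00299 (n = 3) and 0.0104% ± 0.00610 (n = 4), and the Sµ bait gave 0.00562% ± 0.00497 (n = 4) and 0.00715% ± 0.00634 (n = 3). Neither bait, genotype nor stimulation passed (exact permutation tests, adjusted p = 0.218, 0.0720 and 0.998). In the same exact test bait did pass with each position and strand counted once (0.0180 percentage points, adjusted p = 0.0264), and genotype passed without A150 Sµ-bait anti-CD40+IL4 library 3 (0.00663, adjusted p = 0.0360) or anti-CD40+TGF-β library 1 (0.00748, adjusted p = 0.0206).

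With the Sγ3 bait 33 of 45 interval joins had the other orientation, which fits inversion upstream of the bait, and with the Sµ bait 4 of 9 did. The joins were spread over the interval, with 24 of the 54 in its last 6 kb, at the Sµ-side end. No bin had joins in more than 4 libraries. The named bins start at chr12:114638000 (6 joins), 114637000 (6 joins), 114639000 (5 joins), 114632000 (5 joins) and 114622000 (4 joins). Of the 5, 3 lie in the 5 kb at the Sµ-side end of the interval. The cassette lies between Sγ3 and Sµ in A150 mice but has no place of its own in mm9.

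Recurrence of the same prey position and strand was rare. The 369 joins of the 3′ flank had 291 distinct positions, the 54 of the interval 51, and the 912 upstream joins 836. Of these, 16, 0 and 42 were seen in more than 1 library, and 4, 0 and 10 with both baits. As a share of distinct positions those seen with both baits were 1.37% in the 3′ flank and 1.20% upstream, against 53.1% in the switch regions, where positions are hit far more often, and 8.42% on the rest of chromosome 12. Without the G runs the shares were 1.08% in the 3′ flank, 1.20% upstream and 1.63% on the rest of chromosome 12, so low recurrence was not particular to these windows. Positions within 2 bp of each other counted as one gave 11, 0 and 30 seen with both baits.

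The positions seen with both baits were these. In the 3′ flank they were chr12:113902828 (a G run, 10 joins in 8 libraries), 114097601, 114098700 and 114466180, the last 3 with 2 joins each. Upstream, chr12:115364474 at the V site led, with 9 joins in 6 A150 libraries, 8 with the Sγ3 bait and 1 with the Sµ bait, all in the bait orientation. The other 9 had 2 joins each, 1 per bait, all in A150. Of these, 115364225 and 115364336 were at the V site, and 114734988, 114735257, 114735492, 114735663 and 114735752 lay beyond DFL16.1. The last pair, 114706867 and 114716329, lay elsewhere on the D side. Without the G runs, 3 positions in the 3′ flank remained.

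By the rule of most libraries, the other leading positions of the 3′ flank were 113902831, 113902833 and 113902832, all next to the G run. Upstream they were 114734558 and 115364195 in the other orientation and 115364385 and 115364421 in the bait orientation, with 3 joins in 3 libraries each, all from A150 with the Sγ3 bait. In the interval 3 positions had 2 joins, each within 1 library.

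The 3′ flank and the upstream window were denser in joins than the rest of chromosome 12. The mean log2 ratio of joins per Mb over 26 libraries was 3.11 for the 3′ flank and 1.64 upstream (sign-flip permutation tests, adjusted p = 1.5e-05 and 0.00646, where 1e-05 is the smallest p the resamples can give). The ratio was above 0 in 26 and 19 libraries. Without G runs, which fill most of the rest of the chromosome, it was 4.12 and 3.46. The interval is so short that the 0.5 joins added to each count place it above the rest even with no join, as in 12 of the 26 libraries, so its ratio tests nothing. With G runs counted, WT Sγ3-bait libraries were below 0 upstream, with -1.60 ± 0.68 and -3.23 ± 0.81 (n = 3 each) for the stimulations in turn. Each of these libraries held at most 1 upstream join, so the added 0.5 weighs on the ratios, and no depletion can be read from them.

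The structure of the junctions was compared with that of switch joins in the same libraries. Upstream, in 11 libraries with at least 20 joins, 7.75% ± 4.41 of joins had microhomology (MH) above 3 bp, against 7.78% ± 2.25 of switch joins. This mean covers both baits, which differed in direction. With the Sµ bait the upstream share was above the switch share in 4 of 4 libraries (pooled, 22 of 204 joins or 10.8%, against 4.89%), and with the Sγ3 bait it was below in 6 of 7 (43 of 708 or 6.07%, against 9.31%). This split was made after the data had been seen and was not tested. Direct joins made up 28.3% ± 7.29 against 27.3% ± 1.35, and insertions 24.1% ± 8.10 against 22.9% ± 1.66. In the 3′ flank (6 libraries) insertions made up 34.1% ± 10.2 against 22.3% ± 1.72, a difference of 11.7 percentage points, or 5.93 without G runs, and MH above 3 bp differed by -2.28, or -2.61 without G runs. None of the 6 sign-flip permutation tests passed, exact where under 10 libraries entered (adjusted p from 0.188 to 0.990). No interval library had 20 joins. Pooled, 14 of its 54 joins had MH above 3 bp and 4 had an insertion.

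The prey ends were searched for AGCT, a palindrome rich in switch regions and a preferred AID target, and for the RAG heptamer. AGCT stood in the first 30 prey bases of 80 of 899 upstream joins (8.90%) and 34 of 291 3′ flank joins without G runs (11.7%). It stood in 4 of 53 interval joins (7.55%). Switch-region joins had it in 38.2% and joins elsewhere on chromosome 12, without G runs, in 19.8%. Heptamers were counted on either strand. CACAGTA, the form at the 8 D ends, was in 47 upstream prey ends (5.23%), and in 37 of 785 (4.71%) without the V site, against 2 of 1057 (0.189%) on the rest of chromosome 12 and 0.135% in the switch regions. CACAGTG was in 7 upstream prey ends (0.779%), against 0.757% and 0.0181%. These shares are descriptions, and overlapping prey of neighbouring joins share bases. CACAGTG was the heptamer planned for the search. CACAGTA stands at the D ends in these same reads, so its higher share upstream is built in and tests nothing.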

How the data were processed

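The authors deposited 1 table per library from CSR-HTGTS-Seq, in which each row is a join, with prey and bait positions, strands, the read and filter marks. No values were normalized. Per the submitters' processing notes the reads were aligned with Bowtie2 to mm9, with versions not given in the sources used here. Rows were assigned to windows by prey position. A share is the percentage of a library's joins in the locus, the 3 windows and the switch regions between them. The mean shares of library groups were compared by exact permutation (2-sided), with labels permuted within the stimulation (bait, genotype) or within genotype and bait (stimulation), and Benjamini-Hochberg adjustment over 9 tests. The threshold was 0.05. Orientation used libraries with at least 10 joins in the window, and MH those with at least 20. MH is the number of read bases in both alignments. The 6 WT Sγ3-bait libraries entered no share test. Their 29 joins in the 3′ flank were 4.81% of locus joins in the IL4 condition (exact 95% interval 2.59% to 8.09%) and 13.0% in the TGF-β condition (7.62% to 20.3%). Of these joins, 12 in the IL4 and 15 in the TGF-β condition had runs of G. Intervals and limits from 3 counts cover counting error only. Named bins and positions were the 5 of each window found in the most libraries. Sequences were rebuilt from prey alignments without mismatches. The windows and lists were chosen with earlier results of these data known. Scripts were tested on simulated data and used Python 3.11.15, numpy 2.4.6, pandas 2.3.3, scipy 1.17.1 and matplotlib 3.10.9.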

Additional observations from a re-analysis of the deposited data

How the results depend on the processing

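Each choice was changed in turn, and the differences are in percentage points. 2 alternatives, without G runs and without the V site, were chosen after seeing the data. With all joins of the library as the denominator, the 3′ flank differences were -0.0165 for bait (no longer passing) and -0.00975 for stimulation (opposite sign), and the upstream stimulation difference was -0.0464 (passing). Identical joins counted once gave -0.0381 and joins without duplicate marks -0.0367 for upstream stimulation, both passing. Each position and strand counted once gave -0.0141 (3′ flank bait, not passing), -0.0235 (3′ flank stimulation, opposite), 0.0180 (interval bait, passing) and -0.146 (upstream stimulation, passing). Without joins marked for low mapping quality, all of them in the denominator, the 3′ flank genotype (0.0690), upstream bait (0.0239) and upstream genotype (0.152) differences did not pass. Longer alignments gave 0.00164 for interval stimulation (opposite), 0.0338 for upstream bait and -27.4 for upstream orientation by bait (neither passing). Window edges moved by 5 kb gave 0.0335 for the 3′ flank genotype, and leaving out the V site gave 0.0237 for upstream bait, neither passing. Same-numbered libraries correlated at over 0.1 in 12 of 21 pairs (from -0.686 to 0.514). All 3 pairs did so for bait in the TGF-β condition and for stimulation with the Sµ bait in each genotype, but not in the other 4 sets, so no comparison was paired throughout. With the replicate block no share test passed, at an adjusted p of 0.141 for 3′ flank bait (-0.0285) and genotype (0.0413) and upstream bait (0.0399) and genotype (0.0753), and interval stimulation was 8.69e-05 (opposite). The smallest p of 6 pairs is 0.03125, which the 3′ flank and upstream bait tests reached and the genotype tests (0.0625) did not. In MH, values of the opposite sign, none passing, were 0.292, 0.132, 0.373 and 0.415 for upstream MH above 3 bp (identical joins once, each position once, without low mapping quality, without duplicates), 0.274 and 1.36 for direct joins in the 3′ flank (each position once, without G runs), -0.0392 for upstream direct joins (without low mapping quality) and -0.0270 for upstream insertions (without the V site). Positions within 2 bp gave 11 and 30 seen with both baits. Leaving out 1 library gave ranges of -0.0332 to -0.0235 (3′ flank bait), 0.0374 to 0.0503 (3′ flank genotype), 0.00658 to 0.0154 (3′ flank stimulation), -0.0221 to -0.00933 (upstream stimulation), 0.00445 to 0.00748 (interval genotype, passing without either A150 Sµ-bait library that had no join there), -0.00100 to 0.00118 (interval stimulation), -29.7 to -21.1 (upstream orientation by bait) and -4.16 to 4.30 (upstream orientation by stimulation). In all, 383 alternative values kept their direction and, where tested, their side of the threshold, or for counts stayed close. Of the others, 23 had the opposite sign, 18 no longer passed, 7 passed newly and 2 counts moved. The causes of the changes were not tested, apart from the changed denominators. Depth limits the interval and the WT Sγ3 bait.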
